A study of Mus musculus with 12 samples.

Results

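The comparison described here is that of UAG with saline in M. vastus lateralis, a thigh muscle of mostly fast, glycolytic fibres, and it rests on 4 of the 12 arrays of the series. Its members were taken from the sample titles: 2 muscles of mice injected intraperitoneally with UAG (unacylated ghrelin, the form of the stomach peptide ghrelin without its fatty acid) at 20 nmol/kg, and 2 muscles of mice injected with saline (dose 0). All mice, those given saline included, were 12 week old female GHSR KO mice (C57bl/6), which lack the receptor for acylated ghrelin, had free access to chow and were killed 6 h after the injection. No array of a mouse with an intact receptor was used here, so the comparison says nothing of what UAG does where the receptor is present. The other arrays are of gonadal white adipose tissue (WAT) and liver, with 2 UAG and 2 saline arrays each. The labels do not tie arrays of different tissues to the same mouse. The probe set for Ghsr, the deleted receptor, was at or below the floor of 30 units that was applied to all intensities on each of the 12 arrays. With no array of an intact mouse beside it, this value does not test the deletion.

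Skeletal muscle takes up most of the glucose that insulin clears from blood, stores it as glycogen and burns it or fatty acids according to supply. Lipogenesis builds fatty acids from acetyl-CoA that is carried out of mitochondria as citrate, and it draws NADPH from malic enzyme and from the oxidative branch of the pentose phosphate pathway. In mice this pathway runs chiefly in liver and adipocytes, and fat cells between muscle fibres or along the muscle carry the same enzymes. Glucocorticoids act on muscle through a nuclear receptor that induces a set of regulators of stress, clock and fuel use, among them C/EBPδ (Cebpd), KLF15 and PERIOD1. Immediate-early genes answer growth factors, stretch and stress within minutes to hours.

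The promoters of 6 genes whose UAG and saline arrays did not overlap are shown because they belong to the fatty acid and pentose phosphate genes, most of which were lower after UAG, and to the glucocorticoid-responsive genes, most of which were higher, or, for Lep, because the encoded hormone leptin comes from adipocytes. Each run holds the 250 bases before an annotated start site, read 5′ to 3′ on the gene's strand from RefSeq (GRCm38.p6). Capitals mark matches on either strand to 4 motifs, an SREBP element (TCACNCCAC), an E-box (CACGTG), a glucocorticoid receptor half-site (AGAACA) and a C/EBP element (TTGCNNAA). No match of one motif overlapped another in these 6 windows.
Fam107a: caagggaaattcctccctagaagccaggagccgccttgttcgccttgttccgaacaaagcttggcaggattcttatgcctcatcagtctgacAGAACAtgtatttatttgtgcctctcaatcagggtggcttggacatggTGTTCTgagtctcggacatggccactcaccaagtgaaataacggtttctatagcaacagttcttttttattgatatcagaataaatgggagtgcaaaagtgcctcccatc
Per1: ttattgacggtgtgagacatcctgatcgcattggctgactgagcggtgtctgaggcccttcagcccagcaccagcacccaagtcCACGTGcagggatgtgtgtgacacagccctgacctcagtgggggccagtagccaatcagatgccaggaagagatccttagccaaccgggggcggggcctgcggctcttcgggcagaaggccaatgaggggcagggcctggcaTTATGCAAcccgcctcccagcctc
Lep: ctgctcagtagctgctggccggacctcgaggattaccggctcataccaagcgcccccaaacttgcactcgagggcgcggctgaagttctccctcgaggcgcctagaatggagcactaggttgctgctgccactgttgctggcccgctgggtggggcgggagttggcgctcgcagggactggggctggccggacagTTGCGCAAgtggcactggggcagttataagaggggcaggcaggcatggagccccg
Mlxipl: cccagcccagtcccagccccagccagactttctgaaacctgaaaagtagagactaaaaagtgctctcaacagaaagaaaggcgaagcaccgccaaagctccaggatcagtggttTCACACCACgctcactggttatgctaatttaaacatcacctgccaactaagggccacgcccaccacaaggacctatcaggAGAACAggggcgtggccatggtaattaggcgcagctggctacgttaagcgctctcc
Slc25a1: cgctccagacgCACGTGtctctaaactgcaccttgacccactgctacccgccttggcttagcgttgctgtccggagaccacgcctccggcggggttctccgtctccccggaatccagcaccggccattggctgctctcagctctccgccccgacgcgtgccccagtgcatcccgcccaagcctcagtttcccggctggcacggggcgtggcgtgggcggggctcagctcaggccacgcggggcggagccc
Pgd: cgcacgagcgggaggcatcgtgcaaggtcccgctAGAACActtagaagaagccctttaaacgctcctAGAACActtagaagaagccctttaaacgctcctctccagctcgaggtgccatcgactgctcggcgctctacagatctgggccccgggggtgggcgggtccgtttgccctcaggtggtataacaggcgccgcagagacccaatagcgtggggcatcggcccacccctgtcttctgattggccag
The windows lie at chr14:8309780-8310029 for Fam107a, chr11:69098699-69098948 for Per1, chr6:29059971-29060220 for Lep, chr5:135106641-135106890 for Mlxipl, chr16:17928220-17928469 for Slc25a1 and chr4:149166706-149166955 for Pgd, with Per1, Lep and Mlxipl on the plus strand and the other 3 on the minus strand. The Fam107a window had half-sites that began 158 and 110 bases before the start, that of Per1 had an E-box 166 bases and a C/EBP element 24 bases before it, and that of Lep had a C/EBP element 55 bases before it. The Mlxipl window had an SREBP element 136 bases and a half-site 56 bases before the start, that of Slc25a1 an E-box 239 bases before it, and that of Pgd half-sites 216 and 183 bases before it. Over all 32851 promoter windows of the same length, 1.05% held the SREBP element, 6.02% the E-box, 16.1% the half-site and 9.56% the C/EBP element. Of 18 windows of 14 fatty acid synthesis genes, 1 held the SREBP element, 3 the E-box and 3 the half-site. Of 38 windows of 24 glucocorticoid-responsive genes, 6 held the half-site, 6 the E-box and 4 the C/EBP element. The 6 windows were chosen after the search, as the first listed start with a match: matches stood at 2 of 3 starts of Fam107a, at 1 of 2 of Per1 and of Pgd, and at both of Mlxipl. Of other leading lipogenic and pentose phosphate genes, Fasn, Elovl6, Acly, Tkt and Acss2 had 0 matches in 1 window each and Me1 had 0 in 2 windows, while Acaca and Acsl5 had 1 match each. A match describes the letters and no factor was measured on it.

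The arrays measure 45037 probe sets other than controls, given here as intensities in arbitrary units. Correlations across probe sets were 0.945 between the UAG arrays, 0.938 between the saline arrays and 0.941 to 0.951 between UAG and saline arrays, so the groups did not part on the whole profile. The defining markers fitted the label: the summed intensity of 10 skeletal muscle genes was 131231 and 137144 on the UAG arrays and 138794 and 135145 on the saline arrays. Fat cell markers were measured too: the summed adipocyte markers reached 58237 and 68909.7 on the UAG arrays and 54381 and 80915 on the saline arrays, and Adipoq, adiponectin, had 9114 and 10379.6 units on UAG and 7674 and 11936 on saline muscle arrays, beside 12761 and 14161 on UAG and 13419 and 12280.4 on saline WAT arrays. UAG replicate 2 stood apart by neutrophil granule genes (summed intensity 775 and 9228 for UAG replicates 1 and 2, and 645 and 1432 for saline replicates 1 and 2). Saline replicate 2 stood apart by epithelial and mammary genes (mammary list 2107 and 3110.3 on the UAG arrays and 1569 and 6949 on the saline arrays, in the same order), a list added after the data were seen. Saline replicate 1 stood apart by low slow fibre genes (21608 and 18599.7 on the UAG arrays and 11648 and 17548 on the saline arrays). It also had the lowest sum for the glucocorticoid-responsive, immediate-early, collagen and matrix, fibroblast, macrophage and Schwann cell lists, which are described below as higher after UAG. In tissue arrays like these, fewer cells of a type and less RNA per cell cannot be told apart. Many results below are given with the values of single arrays or with the median when 1 array is left out.

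**Figure D1:**
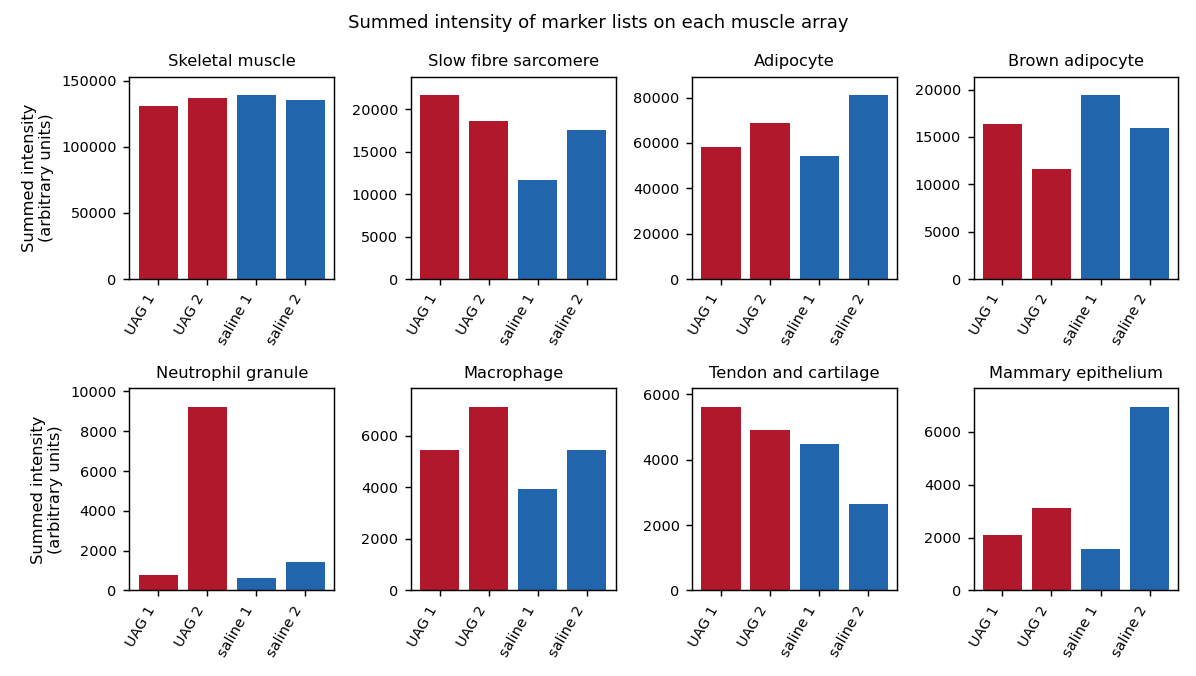
Summed intensity (arbitrary units, linear axes from 0) of 8 marker lists on the UAG (red) and saline (blue) muscle arrays, 1 bar per array. The skeletal muscle sums lie between 131231 and 138794, the neutrophil sum of UAG replicate 2 is 9228, and the mammary sum of saline replicate 2 is 6949.

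A probe set was counted as 2-fold when its mean over the UAG arrays, after the floor of 30, was at least 2 times or at most 0.5 times that over the saline arrays. This held for 133 of 45037 probe sets (0.295%), 60 higher and 73 lower after UAG, and on 71 of them both UAG arrays lay on the same side of both saline arrays. Counted by gene, each through its brightest probe set, 32 of 11902 genes with enough signal to be tested were 2-fold higher (0.269%) and 41 were 2-fold lower (0.344%). The arrays did not overlap for 20 of the 32 and 15 of the 41. All 12 overlapping higher genes had their highest value on UAG replicate 2, and all 26 overlapping lower genes had theirs on saline replicate 2. Over the tested genes, both UAG arrays lay above both saline arrays for 11.8% and below both for 9.73%, which is the background for each count of non-overlapping members that follows. limma on the log2 values called 0 of 25105 probe sets at a Benjamini-Hochberg adjusted p under 0.05 (0%), against 454 at an unadjusted p under 0.05, and the lowest adjusted p, 0.262, belonged to a probe set without a gene symbol. By gene, 1.11% were higher and 0.765% lower at an unadjusted p under 0.05. Even together these shares are below the share of 0.05 that such p-values give when no gene differs. There was thus no excess of low p-values, and these shares are the background for such counts below. The adjusted p of Cebpd was 0.93, and those of the other named genes were at or near 1. With 2 arrays against 2 an exact two-sided permutation test cannot go below 0.333, and the p-values of limma hold for the spread of these arrays. Arbitrary labels would on average part the groups in a share of 0.333 of genes, more than the 11.8% and 9.73% together. The study's methods describe mice with n = 2, while the labels do not assign single arrays to mice. Statements on single genes below are comparisons of array values with their spread, none of them a call. The number of arrays limits their precision. Standard errors (SE) are those of limma, with 2 arrays per group. The median gene had a log2 difference (mean of UAG minus mean of saline) of 0.01, with 6224 higher and 5678 lower.

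Genes of fatty acid synthesis were lower on the UAG arrays as a group. Of 17 measured, 15 were lower, 12 without overlap, and 9 had an unadjusted limma p under 0.05, with a median log2 difference of -0.44. Elovl6, which lengthens palmitate, was the member with the largest difference. Its intensity was 691 and 1223 on the UAG arrays, against 2352 and 1726 on the saline arrays (log2 difference -1.13, SE 0.28). All 3 of its probe sets tested were lower, both UAG arrays lay below both saline arrays, and the UAG arrays differed from each other by more than for most other members.
Along the path from citrate to fatty acid, Slc25a1, the mitochondrial citrate carrier, had 935 and 1219.9 on the UAG arrays, against 1755 and 1748 on the saline arrays (log2 difference -0.71, SE 0.19). Acly, which cleaves citrate to acetyl-CoA in the cytosol, had 1568 and 2772 on the UAG arrays, against 5604 and 2933 on the saline arrays (log2 difference -0.96, SE 0.34). For Slc25a1 the saline arrays were nearly equal, while for Acly saline replicate 1 was far above the other 3 arrays and UAG replicate 2 came close to saline replicate 2. Acss2 makes acetyl-CoA from acetate, and its intensity was 807 and 933 on the UAG arrays, against 1405 and 1280.2 on the saline arrays (log2 difference -0.63, SE 0.18). Acaca, the carboxylase that commits acetyl-CoA to lipogenesis, had 1098 and 1369 on the UAG arrays, against 2104 and 2140.4 on the saline arrays (log2 difference -0.79, SE 0.18). Both showed a gap between the groups wider than the gap within either group. Fasn, the fatty acid synthase, had 4904 and 6315 on the UAG arrays, against 7961 and 9263 on the saline arrays (log2 difference -0.63, SE 0.17), so its higher UAG array stayed below its lower saline array. Acsl5, an acyl-CoA synthetase that activates fatty acids in the outer mitochondrial membrane and the endoplasmic reticulum, had 324 and 361 on the UAG arrays, against 779 and 585 on the saline arrays (log2 difference -0.98, SE 0.22). The UAG arrays of Acsl5 lay close together, well below both saline arrays.
The regulators of the pathway had smaller differences than these enzymes. Srebf1, which encodes the transcription factor SREBP1, had 662 and 770.3 on the UAG arrays, against 814 and 879 on the saline arrays (log2 difference -0.24, SE 0.19), and Mlxipl, which encodes the glucose-responsive factor ChREBP, had 607 and 620.0 on the UAG arrays, against 882 and 700.1 on the saline arrays (log2 difference -0.36, SE 0.20). Thrsp, a lipogenic nuclear protein of fat and liver, had 5298 and 7397 on the UAG arrays, against 9039 and 7984 on the saline arrays (log2 difference -0.44, SE 0.18). None of these 3 overlapped between groups, and for Srebf1 the standard error was close to the difference. Scd1, the stearoyl-CoA desaturase, was near the top of the intensity range at 12577 and 13762 on the UAG arrays and 13203 and 14577 on the saline arrays, and its groups overlapped. With each array left out in turn the list median ran from -0.68, without UAG replicate 2, to -0.34, without UAG replicate 1.

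Me1, malic enzyme, which forms NADPH for lipogenesis, had 2617 and 2839 on the UAG arrays, against 4634 and 4081 on the saline arrays (log2 difference -0.67, SE 0.16). In the pentose phosphate pathway 11 of 12 tested genes were lower, 5 without overlap and 3 at an unadjusted p under 0.05, but its median was only -0.09, because the other members lay close to 0, and it was -0.36 without saline replicate 1. Pgd, the second NADPH-forming dehydrogenase of the pathway, had 1113 and 1066 on the UAG arrays, against 1749.8 and 1751 on the saline arrays (log2 difference -0.68, SE 0.17). Its 4 tested probe sets were all lower, and each group's arrays were almost equal. Tkt, transketolase, had 4687 and 6661 on the UAG arrays, against 8576 and 10173 on the saline arrays (log2 difference -0.74, SE 0.19), and Taldo1, transaldolase, had 1814 and 1903 on the UAG arrays, against 2282 and 2536 on the saline arrays (log2 difference -0.37, SE 0.16), both without overlap. H6pd, the hexose-6-phosphate dehydrogenase of the endoplasmic reticulum, had 339 and 416 on the UAG arrays, against 315 and 475 on the saline arrays (log2 difference -0.04, SE 0.25), and its saline arrays enclosed its UAG arrays.

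**Figure D2:**
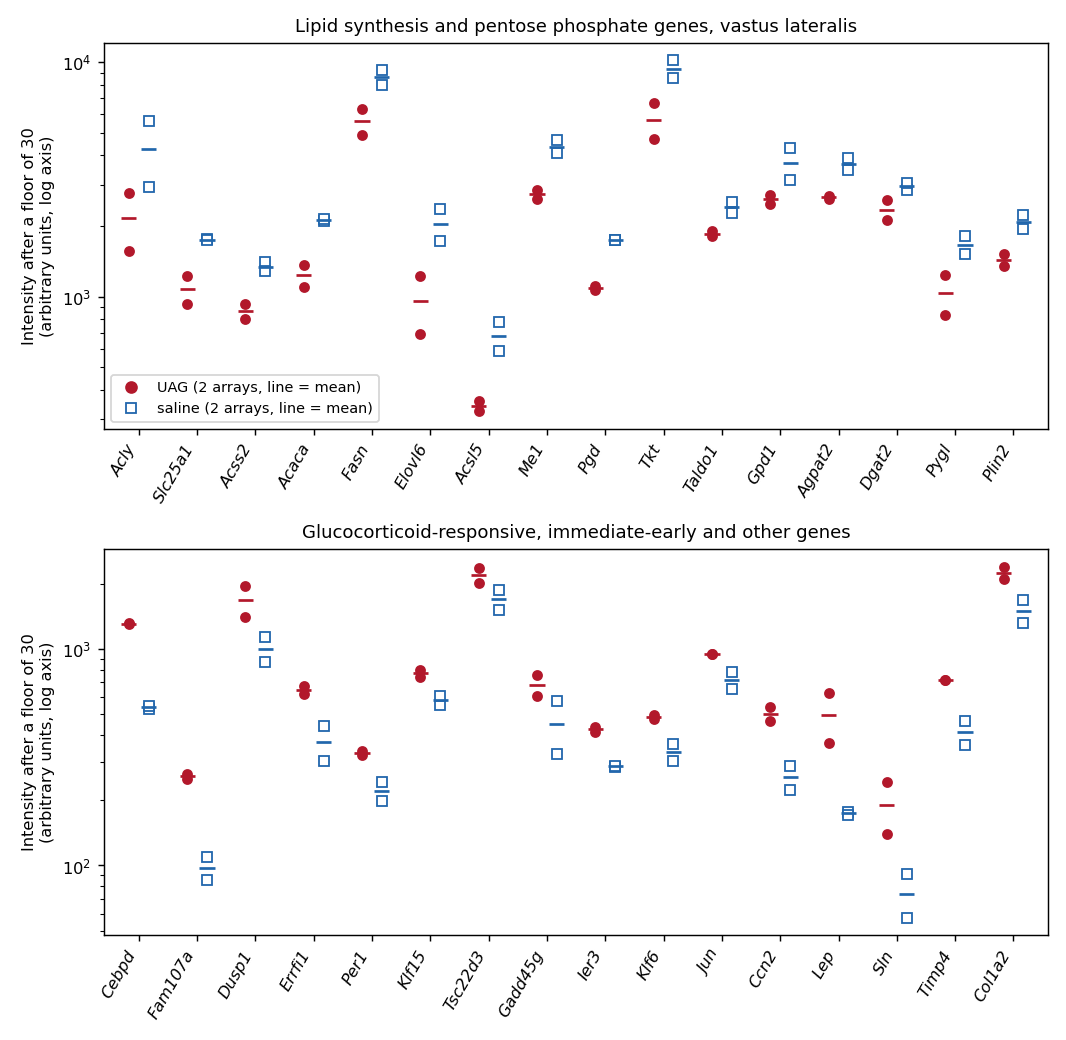
Intensity (arbitrary units after a floor of 30, log axis) of each UAG array (filled red circles) and each saline array (open blue squares) in vastus lateralis, with the mean of 2 as a line. Only genes whose groups did not overlap are drawn, 16 lower in the upper panel and 16 higher in the lower panel. The upper panel holds genes of lipid synthesis, the pentose phosphate pathway and fuel storage. The lower panel holds glucocorticoid-responsive, immediate-early, matrix and other genes. Members of these lists that overlapped, such as Scd1, H6pd and Fos, are left out. Over all tested genes, 9.73% were lower and 11.8% higher without overlap.

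Triglyceride synthesis had 12 of 14 genes lower, 5 without overlap, with a median of -0.19, which was -0.47 without saline replicate 1 and -0.08 without saline replicate 2. Gpd1, which makes the glycerol phosphate backbone, had 2712 and 2491 on the UAG arrays, against 4319 and 3128 on the saline arrays (log2 difference -0.50, SE 0.19), and Agpat2, the acyltransferase of the second step, had 2698 and 2611 on the UAG arrays, against 3469 and 3905 on the saline arrays (log2 difference -0.47, SE 0.15). Dgat2, which adds the last acyl chain, had 2113 and 2577 on the UAG arrays, against 2851 and 3058 on the saline arrays (log2 difference -0.34, SE 0.17). Their groups did not overlap, and the difference of Dgat2 was the smallest of the 3 in units of its standard error. Plin2, a coat protein of lipid droplets, had 1516 and 1352 on the UAG arrays, against 1947 and 2230.4 on the saline arrays (log2 difference -0.54, SE 0.17) and stood in a list of lipolysis and uptake genes whose members were otherwise balanced, with 9 higher and 9 lower of 18. Cholesterol synthesis and uptake had 17 of 20 genes lower, 5 without overlap, at a median of -0.16, or -0.08 without UAG replicate 2. None of its members reached an unadjusted p under 0.05. Pmvk, phosphomevalonate kinase, had 189 and 174 on the UAG arrays, against 282 and 211 on the saline arrays (log2 difference -0.43, SE 0.23), and Hmgcs1, the synthase at the entry to the pathway, had 801 and 849 on the UAG arrays, against 910.3 and 1116 on the saline arrays (log2 difference -0.29, SE 0.19). Of the 3 higher members, Scap, the escort protein of SREBP, was the only one apart between groups, with 211 and 208 on the UAG arrays, against 167 and 142 on the saline arrays (log2 difference 0.44, SE 0.21).

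Brown adipocyte markers were lower too, and the contribution of fat cells to the lipogenic genes was not tested. All 9 tested brown markers were lower after UAG, 5 without overlap, at a median of -0.71, or -0.32 without UAG replicate 2 and -0.37 without saline replicate 1. Ucp1, the uncoupling protein that makes heat in brown fat, had 2558 and 1043 on the UAG arrays, against 3713 and 3348 on the saline arrays (log2 difference -1.11, SE 0.36). Cidea, a lipid droplet protein of brown fat, had 2093 and 1867 on the UAG arrays, against 4040.4 and 2739 on the saline arrays (log2 difference -0.75, SE 0.21), and Elovl3, an elongase that cold induces in brown fat, had 402 and 174 on the UAG arrays, against 460.0 and 458 on the saline arrays (log2 difference -0.80, SE 0.36). UAG replicate 2 was the lowest array for all 3. Cox8b, a cytochrome oxidase subunit that muscle fibres express too, had 10589.8 and 8051 on the UAG arrays and 10123 and 8558 on the saline arrays and overlapped. The general adipocyte markers did not split in this way: 6 of 13 were higher and 7 lower after UAG at a median of -0.02, with the lowest and the highest sums both on saline arrays. Fabp4, the fatty acid carrier of adipocytes, had 14272 and 16432 on the UAG arrays and 13399 and 18188 on the saline arrays, and Pparg, the master regulator of fat cell differentiation, had 520.2 and 455 on UAG and 384 and 878 on saline arrays, with the UAG arrays between the saline arrays for both. Without saline replicate 1 the median of the adipocyte list was -0.48, and without saline replicate 2 it was 0.34. Under the same omissions the median was -0.49 and -0.53 for fatty acid synthesis and -0.37 and -1.01 for the brown adipocyte markers. Thrsp is a member of both the adipocyte and the fatty acid synthesis list. Lep and Nnat stood out among the adipocyte genes. Lep, leptin, had 366 and 626 on the UAG arrays, against 176 and 172 on the saline arrays (log2 difference 1.46, SE 0.28), so both UAG arrays were above both saline arrays and UAG replicate 2 was the highest. Nnat, neuronatin, a small membrane protein of fat and brain, had 397 and 438 on the UAG arrays, against 59.4 and 329 on the saline arrays (log2 difference 1.58, SE 0.64); its large difference came from saline replicate 1, since saline replicate 2 was close to the UAG arrays.

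Sugar handling showed lower values for single genes and no shift of the lists. Glycolysis had 12 of 22 genes higher and 10 lower at a median of 0.01, although its 5 non-overlapping genes were all lower. Pfkl, the liver type phosphofructokinase, had 393 and 350.2 on the UAG arrays, against 649 and 519 on the saline arrays (log2 difference -0.65, SE 0.21), and Gpd2, the mitochondrial enzyme of the glycerol phosphate shuttle, had 1585 and 1482 on the UAG arrays, against 2383 and 1887 on the saline arrays (log2 difference -0.47, SE 0.18). Both were apart between groups. Pygl, the liver form of glycogen phosphorylase, had 839 and 1241 on the UAG arrays, against 1818 and 1514 on the saline arrays (log2 difference -0.70, SE 0.23) without overlap. Slc2a5, the fructose transporter, was dim at 61.2 and 78.7 on the UAG arrays, against 211 and 96.6 on the saline arrays (log2 difference -1.04, SE 0.37), and the fold came mainly from saline replicate 1. Slc2a4, the insulin-responsive glucose transporter of muscle, had 2547 and 2405 on the UAG arrays and 2651 and 2331 on the saline arrays and overlapped. Among insulin and PI3 kinase genes, 11 of 25 were higher and 14 lower at a median that rounds to 0. Irs1, the main insulin receptor substrate of muscle, had 1399.9 and 1010.1 on the UAG arrays, against 1967 and 1816 on the saline arrays (log2 difference -0.67, SE 0.20), the largest difference of that list, while Insr, the insulin receptor, had 528 and 598 on UAG and 551 and 642 on saline arrays. Pik3cb, a catalytic subunit of PI3 kinase, had 115 and 106 on the UAG arrays, against 129.9 and 174 on the saline arrays (log2 difference -0.44, SE 0.24). Irs1 and Pik3cb did not overlap between groups, and Insr did.

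The lists of oxidative metabolism had medians near 0. Of 24 fatty acid oxidation genes, 8 were higher and 16 lower at a median of -0.05, and of 27 respiratory chain genes, 20 were higher and 7 lower at 0.03. The citric acid cycle had 8 of 24 higher and 16 lower at -0.05. Pdk4, the kinase that shuts pyruvate out of the cycle, had 5249 and 3925 on the UAG arrays, against 1994 and 4622 on the saline arrays (log2 difference 0.58, SE 0.35), with saline replicate 1 far below the other 3 arrays. Dio2, the deiodinase that activates thyroid hormone in brown fat and muscle, was dim at 64.9 and 40.3 on the UAG arrays, against 70.4 and 122 on the saline arrays (log2 difference -0.86, SE 0.37).

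Glucocorticoid-responsive genes were higher on the UAG arrays as a group. Of 27 measured, 23 were higher, 13 of them without overlap, and 6 had an unadjusted p under 0.05, with a median log2 difference of 0.37. Cebpd, the transcription factor C/EBPδ, had the lowest p of any named gene, at 1314 and 1301 on the UAG arrays, against 529 and 546 on the saline arrays (log2 difference 1.28, SE 0.18). The 2 arrays of each group were nearly identical. Its second, dim probe set had 57.8 and 48.2 on the UAG arrays and 55.7 and 36.6 on the saline arrays, a log2 difference of 0.22 with overlap, and the mean over both probe sets was 0.75. Fam107a, an actin-binding protein that glucocorticoids and stress induce, had 250.2 and 265 on the UAG arrays, against 85.9 and 109 on the saline arrays (log2 difference 1.41, SE 0.23), again with little spread within either group. Its printed window, chosen because it held a match, had half-sites. The half-site stood in 15.8% of the windows of this list and in 16.1% of all windows. Dusp1, the phosphatase that switches off MAP kinases, had 1404 and 1947 on the UAG arrays, against 871 and 1131 on the saline arrays (log2 difference 0.74, SE 0.22), and Errfi1, an inhibitor of the EGF receptor, had 616 and 671 on the UAG arrays, against 302 and 439 on the saline arrays (log2 difference 0.82, SE 0.23). Per1, a clock repressor, had 322 and 338 on the UAG arrays, against 199 and 244 on the saline arrays (log2 difference 0.58, SE 0.21). In these 3 the groups did not overlap, although the UAG arrays of Dusp1 differed from each other by more than the nearest arrays of the groups did. Klf15, which drives amino acid breakdown in muscle, had 802 and 739 on the UAG arrays, against 552 and 605 on the saline arrays (log2 difference 0.41, SE 0.19). Tsc22d3, the glucocorticoid-induced leucine zipper, had 2016 and 2353 on the UAG arrays, against 1875 and 1508 on the saline arrays (log2 difference 0.37, SE 0.18), and its 4 probe sets were all higher. Gadd45g, a stress sensor, had 608 and 756 on the UAG arrays, against 328 and 572 on the saline arrays (log2 difference 0.65, SE 0.28), and Cdkn1a, the cell cycle inhibitor p21, had 554 and 463 on the UAG arrays, against 453 and 229 on the saline arrays (log2 difference 0.65, SE 0.32). Nr3c1, the glucocorticoid receptor itself, was on the other side with 647 and 770.4 on the UAG arrays, against 892 and 858 on the saline arrays (log2 difference -0.31, SE 0.19). The median of the list was 0.25 without saline replicate 1, 0.26 without UAG replicate 2 and 0.48 without UAG replicate 1. The summed intensity of the list was 38256 and 44131 on the UAG arrays, against 29673 and 37122 on the saline arrays. Saline replicate 1 was thus the lowest, and saline replicate 2 was close to UAG replicate 1.

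Immediate-early genes were also higher, 25 of 27, with 12 non-overlapping and all of those higher, 4 at an unadjusted p under 0.05, and a median of 0.36. Ccn2, the connective tissue growth factor, had 537 and 464 on the UAG arrays, against 223 and 288 on the saline arrays (log2 difference 0.98, SE 0.22), and the lower UAG array was well above the higher saline array. Ier3, a survival gene, had 415 and 438 on the UAG arrays, against 286 and 288 on the saline arrays (log2 difference 0.57, SE 0.19), Klf6, a zinc finger factor, had 475 and 494 on the UAG arrays, against 303 and 364 on the saline arrays (log2 difference 0.54, SE 0.20), and Jun, a subunit of AP-1, had 942 and 948 on the UAG arrays, against 652 and 779 on the saline arrays (log2 difference 0.41, SE 0.19). The UAG arrays of Jun, Ier3 and Klf6 were each close together. Fos, the partner of Jun, overlapped, with 218 and 219.8 on the UAG arrays and 86.7 and 261 on the saline arrays. Egr2, a zinc finger factor, was the member with the lowest difference (-0.38). Without saline replicate 1, the array with the lowest sum, the median was 0.14 (summed intensity 9373 and 9721 on the UAG arrays and 6448 and 8059.6 on the saline arrays).

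The contractile genes of fast fibres had differences close to 0. Of 12 measured, 3 were higher and 9 lower at a median of -0.03, and each lay within -0.15 and 0.21. Myh4, the heavy chain of the fastest fibres, had 13142 and 13520.4 on the UAG arrays and 14117 and 14023 on the saline arrays. Tnnt3, fast troponin T, had 18498 and 18498 on the UAG arrays and 18498 and 18028 on the saline arrays, the top of the intensity range on 3 of the 4.
Slow fibre genes were higher in 11 of 12 cases at a median of 0.79, but the median rested on 1 array. Myh7, the slow myosin heavy chain, had 817 and 993 on the UAG arrays, against 76.8 and 808 on the saline arrays (log2 difference 1.85, SE 0.86). Tnnt1, slow troponin T, had 529 and 507 on the UAG arrays, against 78.5 and 500.4 on the saline arrays (log2 difference 1.38, SE 0.69). In both, saline replicate 1 was several times below the other 3 arrays and saline replicate 2 was just under the UAG arrays. Without saline replicate 1 the median of the list was -0.02, and without saline replicate 2 it was 1.24. Myoz2, a Z disc protein of slow fibres, had 2271 and 1721 on the UAG arrays, against 1057 and 1417 on the saline arrays (log2 difference 0.69, SE 0.22), with both saline arrays below both UAG arrays. Mybpc1, slow myosin-binding protein C, had 6931 and 6399.8 on the UAG arrays and 6793 and 4681 on the saline arrays, so that here saline replicate 1 lay between the UAG arrays and saline replicate 2 was the lowest.
Sln, sarcolipin, a peptide that uncouples the sarcoplasmic calcium pump, had 139.6 and 243 on the UAG arrays, against 57.4 and 91.1 on the saline arrays (log2 difference 1.35, SE 0.34), with both UAG arrays above both saline arrays. Casq2, the calcium store protein of slow and heart muscle, had 422 and 383 on the UAG arrays, against 234 and 319 on the saline arrays (log2 difference 0.56, SE 0.23), and the list of 22 calcium handling genes had a median of 0.05. Lmod2, leiomodin, which nucleates actin filaments in the sarcomere, had 1564 and 1687 on the UAG arrays, against 871 and 1107 on the saline arrays (log2 difference 0.73, SE 0.19), and Retreg1, a receptor for autophagy of the endoplasmic reticulum, had 4731 and 4385 on the UAG arrays, against 3063 and 3013 on the saline arrays (log2 difference 0.58, SE 0.15). Each group's arrays were closer to each other than to the other group for Lmod2 and Retreg1. Myf6, a myogenic factor kept in adult fibres, had 1557 and 1471 on the UAG arrays, against 1281 and 935 on the saline arrays (log2 difference 0.47, SE 0.20).
The genes of muscle breakdown had 16 of 21 higher at a median of 0.11, or 0.04 without saline replicate 1, with none at an unadjusted p under 0.05. Trim63, the ubiquitin ligase MuRF1, had 3710.2 and 4614 on the UAG arrays, against 2997 and 3582 on the saline arrays (log2 difference 0.34, SE 0.18) without overlap, while Fbxo32, the ligase atrogin-1, had 2857 and 2610.4 on the UAG arrays and 2390.4 and 2803 on the saline arrays and overlapped. Fst, follistatin, which binds and blocks myostatin and activin, had 128 and 159 on the UAG arrays, against 101 and 92.0 on the saline arrays (log2 difference 0.57, SE 0.24). Of 19 clock genes 12 were higher at a median of 0.06; besides Per1, Usp2, a ubiquitin protease under clock control, had 1984 and 1803 on the UAG arrays, against 1538 and 1202 on the saline arrays (log2 difference 0.48, SE 0.19), and Nr1d1, the repressor REV-ERBα, had 273 and 240.0 on the UAG arrays, against 337 and 336 on the saline arrays (log2 difference -0.40, SE 0.20) in the other direction. All 3 were apart between groups.

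**Figure D3:**
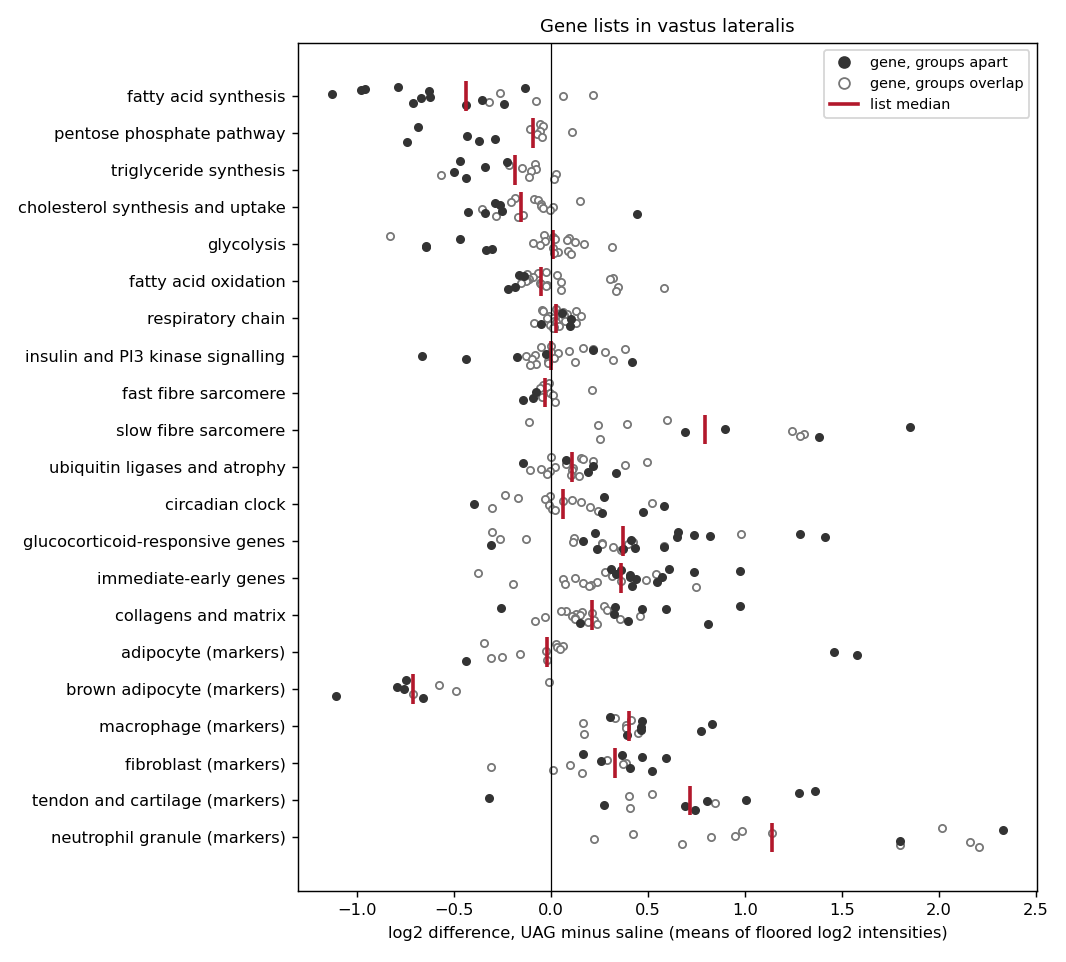
Log2 difference (UAG minus saline, means of 2 floored log2 intensities each) of each tested gene in 21 lists, with filled points where the UAG and saline arrays did not overlap, open points where they did, and the list median in red. Fatty acid synthesis (median -0.44) and brown adipocyte markers (-0.71) lie to the left, glucocorticoid-responsive (0.37) and immediate-early genes (0.36) to the right, and fast fibre, insulin and respiratory chain genes close to 0.

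Tendon genes were higher after UAG, and the direction of the matrix genes turned on 1 saline array. Collagens and matrix genes were higher in 24 of 27 cases with all 4 arrays, 8 without overlap, at a median of 0.21. Of the 3 lower genes, 1 was apart between groups. Timp4, an inhibitor of matrix metalloproteinases, had 721 and 716 on the UAG arrays, against 361 and 463 on the saline arrays (log2 difference 0.81, SE 0.20), and Col1a2, a chain of type I collagen, had 2099 and 2396 on the UAG arrays, against 1314 and 1687 on the saline arrays (log2 difference 0.59, SE 0.19). Timp4 was nearly equal on the UAG arrays, and its higher saline array was far below them. Without saline replicate 1, the lowest array in the summed list (21616 and 23692 on the UAG arrays and 14806 and 23889 on the saline arrays), the median was -0.10, and without saline replicate 2 it was 0.56.
Tendon and cartilage markers were higher in 11 of 12 cases, 7 without overlap, at a median of 0.72, and the sums were 5617 and 4911 on the UAG arrays and 4467 and 2630.3 on the saline arrays. The 1 lower marker (log2 difference -0.32) was apart between groups too. Chad, a cartilage matrix protein, had 307 and 279.8 on the UAG arrays, against 182 and 80.2 on the saline arrays (log2 difference 1.28, SE 0.36), Comp, the cartilage oligomeric matrix protein, had 240.3 and 272 on the UAG arrays, against 192 and 84.3 on the saline arrays (log2 difference 1.00, SE 0.36), and Tnmd, tenomodulin of tendon cells, had 459.8 and 356 on the UAG arrays, against 299 and 196 on the saline arrays (log2 difference 0.74, SE 0.26). Angptl7, a secreted protein that this list counts among tendon genes, had 379 and 331 on the UAG arrays, against 225 and 84.4 on the saline arrays (log2 difference 1.36, SE 0.41). Saline replicate 2 was the lowest array for all 4, and the median of the list was 0.28 without it and 1.24 without saline replicate 1. Fibroblast markers were higher in 13 of 14 cases at a median of 0.33, which was 0.19 without saline replicate 1 and 0.21 without UAG replicate 2. The part of tendon and connective tissue in these values was not tested.

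Macrophage markers were higher in all 14 tested cases, 7 without overlap, at a median of 0.40. Cd163, the haemoglobin scavenger receptor of resident macrophages, which glucocorticoids induce, had 283 and 473 on the UAG arrays, against 190.2 and 223 on the saline arrays (log2 difference 0.83, SE 0.28). Lyve1, a hyaluronan receptor of resident macrophages and lymphatic vessels, had 265 and 365 on the UAG arrays, against 158 and 209.9 on the saline arrays (log2 difference 0.77, SE 0.25), and Csf1r, the receptor for macrophage colony-stimulating factor, had 1026 and 1167 on the UAG arrays, against 733 and 861 on the saline arrays (log2 difference 0.46, SE 0.19). UAG replicate 2 was the highest array for these 3, saline replicate 1 was the lowest, and the median of the list was 0.15 without saline replicate 1 and 0.71 without saline replicate 2. Alox5ap, the activating protein of leukotriene synthesis, had 295 and 464 on the UAG arrays, against 167 and 199.6 on the saline arrays (log2 difference 1.02, SE 0.26).
Neutrophil granule genes had the largest ratios of means among the 2-fold genes, and these were those of 1 array. S100a9, a calcium-binding protein of neutrophils, had 55.8 and 2629.6 on the UAG arrays and 56.1 and 123 on the saline arrays, and Ngp, a granule protein, had 54.7 and 1280.4 on the UAG arrays and 53.5 and 65.2 on the saline arrays. Chil3, a lectin of neutrophils and macrophages, had 64.7 and 598 on the UAG arrays and 30 and 50.8 on the saline arrays. For Chil3 UAG replicate 1 was only just above saline replicate 2. Without UAG replicate 2 the median of the 13 markers was -0.15, against 1.14 with it. Slc15a2, a peptide transporter, had 60.8 and 262 on the UAG arrays and 73.2 and 38.6 on the saline arrays and was likewise high on UAG replicate 2 alone. So were Ppbp, with 30 and 259 on the UAG arrays and 30 and 30 on the saline arrays, and Slc4a1. Slc4a1, of the erythroid list, had 30 and 121 on the UAG arrays and 32.5 and 30 on the saline arrays.
Epithelial genes had the mirrored pattern on the lower side. Krt18, a keratin of simple epithelia, had 177 and 252 on the UAG arrays and 30 and 1056 on the saline arrays, Pgr, the progesterone receptor, had 41.1 and 49.5 on the UAG arrays and 30 and 400.2 on the saline arrays, and Csn3, a milk casein, had 54.1 and 119 on the UAG arrays and 30 and 467 on the saline arrays. Foxa1, a forkhead factor of epithelia, had 67.1 and 108 on the UAG arrays and 30 and 377 on the saline arrays. In each, saline replicate 2 was far above the other 3 arrays and saline replicate 1 was at the floor. Of 21 tested mammary genes, 10 were 2-fold lower, beside 0.344% of all tested genes, and 0 of the 21 were apart between groups. Over all tested genes, 11.8% were apart and higher and 9.73% apart and lower. The mammary list was added after the data were seen, so its count was shaped by that choice and is no separate evidence. The part of neutrophils and of epithelium in the other results was not tested. Without saline replicate 2 the median of the mammary list was 0.57, against -0.35 with it.

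Among receptors and signals, Gpr1, a receptor for chemerin, was dim but apart at 86.3 and 98.2 on the UAG arrays, against 35.7 and 53.6 on the saline arrays (log2 difference 1.07, SE 0.31). Npr3, the clearance receptor for natriuretic peptides, had 322 and 514 on the UAG arrays, against 163 and 309 on the saline arrays (log2 difference 0.86, SE 0.34), and F2r, a thrombin receptor, had 260.2 and 269.9 on the UAG arrays, against 166 and 200.2 on the saline arrays (log2 difference 0.54, SE 0.21). Rgs7, which speeds the inactivation of G proteins, was on the lower side with 133 and 107 on the UAG arrays, against 156 and 238 on the saline arrays (log2 difference -0.69, SE 0.27). All 4 were apart between groups, and the list of 20 such genes had 11 higher and 9 lower at a median of 0.04. Oxtr, the oxytocin receptor, which the study also names for muscle, was 2-fold lower by means, but its groups overlapped. It had 63.1 and 83.1 on the UAG arrays and 70.9 and 291 on the saline arrays, so saline replicate 2 alone was high. Nmb, neuromedin B, had 138 and 151 on the UAG arrays, against 93.2 and 84.2 on the saline arrays (log2 difference 0.71, SE 0.23), Gdf10, a growth factor of the TGF-β family, had 199.7 and 173 on the UAG arrays, against 123 and 112 on the saline arrays (log2 difference 0.67, SE 0.22), and Cytl1, a secreted cytokine-like protein, had 176 and 302 on the UAG arrays, against 90.3 and 79.7 on the saline arrays (log2 difference 1.44, SE 0.29).
In amino acid metabolism, Odc1, the first enzyme of polyamine synthesis, had 1289 and 997 on the UAG arrays, against 819.8 and 724 on the saline arrays (log2 difference 0.56, SE 0.20) and Aspg, an asparaginase, had 85.5 and 109.8 on the UAG arrays, against 259.9 and 194 on the saline arrays (log2 difference -1.21, SE 0.25). Sesn2, a leucine sensor that stress induces, had 32.9 and 30 on the UAG arrays and 53.2 and 75.9 on the saline arrays, close to the floor. Arrdc2, an arrestin-like protein, had 569 and 529.9 on the UAG arrays, against 307 and 355 on the saline arrays (log2 difference 0.73, SE 0.20), Slc10a6, a transporter of steroid sulfates, had 184 and 179 on the UAG arrays, against 91.6 and 109.9 on the saline arrays (log2 difference 0.85, SE 0.22), and Otud1, a deubiquitinase, had 294 and 369 on the UAG arrays, against 196 and 183 on the saline arrays (log2 difference 0.80, SE 0.22). None of these 6 overlapped between groups.
On the lower side, Erdr1, an erythroid differentiation regulator, had 309.6 and 438 on the UAG arrays, against 939.6 and 790.3 on the saline arrays (log2 difference -1.23, SE 0.23), and Tmem267, a transmembrane protein, had 361 and 294 on the UAG arrays, against 1007 and 589 on the saline arrays (log2 difference -1.24, SE 0.28). Both UAG arrays lay below both saline arrays for each, and the probe set of Erdr1 is of a type that can also bind other transcripts. The lowest log2 difference among the 2-fold genes with groups apart was that of Rimklb, a glutamate ligase, at 30 and 30 on the UAG arrays and 83.1 and 77.9 on the saline arrays (-1.42). The UAG arrays were at the floor, so this size depends on the floor.
Further 2-fold genes with groups apart were mostly dim. The probe set that the array annotation gives to Gm13306 had 242 and 354 on the UAG arrays, against 149 and 110.2 on the saline arrays (log2 difference 1.19, SE 0.27). The study lists the same probe set for muscle under another gene, Oprs1, a sigma opioid receptor. Mpo, the myeloperoxidase of neutrophils, had 34.0 and 319.9 on the UAG arrays and 30 and 30 on the saline arrays, and was high on UAG replicate 2 alone, as other granule genes were. On the lower side, Scrt1, a transcriptional repressor of neurons, had 30 and 36.2 on the UAG arrays and 80.0 and 74.6 on the saline arrays, and Actl7b, an actin-like protein of testis, had 30 and 38.8 on the UAG arrays and 57.6 and 108 on the saline arrays. Slc5a5, the iodide transporter, had 30 and 30 on the UAG arrays and 31.0 and 152 on the saline arrays, so that saline replicate 2 alone was clearly above the floor. The transcript G530011O06Rik had 41.4 and 50.1 on the UAG arrays and 126 and 75.9 on the saline arrays, Dock6, a guanine nucleotide exchange factor, had 32.9 and 38.6 on the UAG arrays and 82.1 and 67.5 on the saline arrays, and Dnm1, the dynamin of neurons, had 36.2 and 34.3 on the UAG arrays and 67.7 and 75.8 on the saline arrays. For Dnm1 the second probe set tested was on the other side, and the mean over both was -0.45.

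The same genes can be set beside those of gonadal WAT and liver, which were measured on other arrays. The labels do not say whether these arrays come from the same mice as those of muscle. Similar values across tissues are therefore not taken as independent repeats, although the limma fit between tissues treated them as independent. limma found 0 of 27264 probe sets whose difference departed from that in WAT at an adjusted p under 0.05 (lowest 0.142, 811 at an unadjusted p under 0.05), and 0 of 28566 for liver (lowest 0.578, 940 unadjusted). None of these genes was therefore shown to be particular to muscle. Both unadjusted counts are below the share of 0.05 that would pass with no differences between tissues. Cebpd was higher in each tissue, with 448 and 603 on UAG and 154 and 347 on saline WAT arrays and 219.7 and 301 on UAG and 64.7 and 166 on saline liver arrays, and its log2 difference was 1.28 in muscle, 1.17 in WAT and 1.31 in liver. The muscle arrays had the tightest replicates of the 3. Errfi1 likewise had 0.82 in muscle, 0.97 in WAT and 1.09 in liver, and Per1 had 0.58, 0.91 and 0.94 in the same order. Fam107a had 1.41 in muscle and 1.54 in WAT and was at or near the floor in liver. Lep had 2762 and 3283 on UAG and 1495 and 392 on saline WAT arrays, without overlap.
The lipogenic genes were lower after UAG in WAT too. Acaca had 2512 and 2706 on UAG and 6402 and 3240.4 on saline WAT arrays, Elovl6 had 1038 and 1039 and 6899 and 1634, and Me1 had 3706 and 4723 and 12549 and 5677, UAG before saline. In WAT, as in muscle, both saline arrays lay above both UAG arrays for these 3 genes, and in WAT saline replicate 1 was far above the other 3 arrays. The median of the fatty acid synthesis list was -0.44 in muscle, -0.76 in WAT and -0.09 in liver, and that of the glucocorticoid-responsive list was 0.37, 0.49 and 0.23. Tkt had a difference of -0.74 in muscle, -0.10 in WAT and 0.05 in liver. Erdr1 had 670.2 and 836 on UAG and 1822 and 1946 on saline WAT arrays and 605 and 467 on UAG and 1443 and 1299 on saline liver arrays, and Tmem267 had log2 differences of -1.24 in muscle, -1.64 in WAT and -1.52 in liver. The groups of both genes were apart in all 3 tissues.

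**Figure D4:**
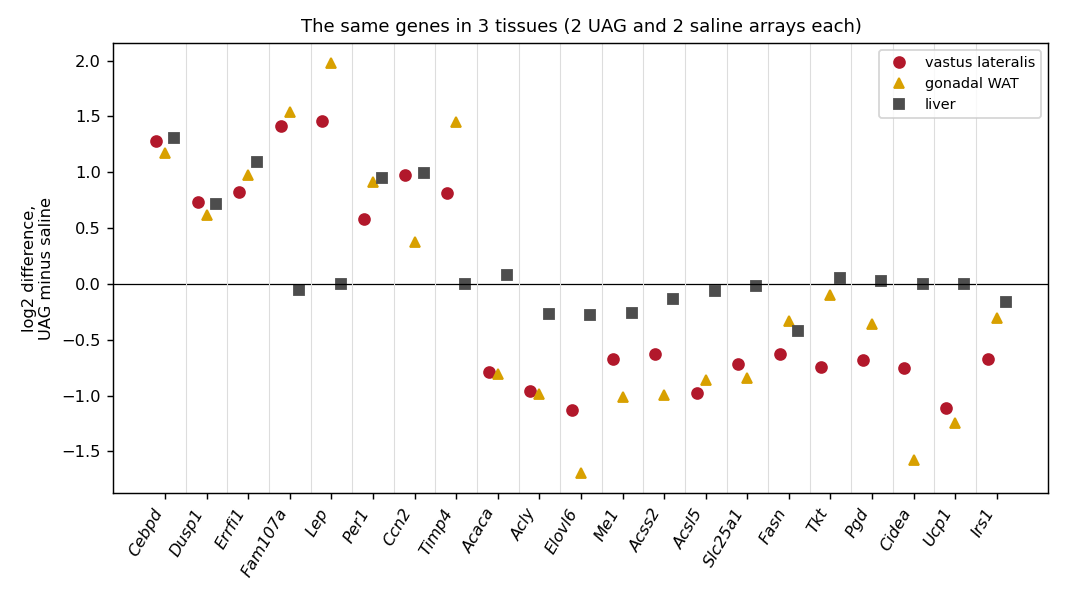
Log2 difference (UAG minus saline, means of 2 arrays each) of 21 genes in vastus lateralis (red circles), gonadal WAT (yellow triangles) and liver (grey squares). Cebpd lies at 1.28 in muscle, 1.17 in WAT and 1.31 in liver, while Acaca lies at -0.79 in muscle, -0.80 in WAT and 0.08 in liver.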

How the data were processed

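RNA of each muscle was labelled and hybridized to Affymetrix mouse whole-genome arrays by the authors, who quantile normalized the intensities. MAS5 is named in the submitters' processing notes, with no version. The deposited table holds log2 values, and no source gives the base; base 2 was taken from the size of the ratio of Gpr1, a gene the study names, which is 2.07 with it (2.81 with base e, 9.79 with base 10). A floor of 30 was set on the unlogged intensities as in the study's methods. limma 3.58.1 in R 4.3.3 was run on log2 values of the 4 muscle arrays, with an intensity trend and a mean intensity of at least 30, and on all 12 arrays for differences between tissues. On simulated arrays with independent noise and known shifts, its mean estimates were close to those shifts. Differences shared by many genes of an array were not simulated. Symbols come from the array annotation: 9160 probe sets had none, 932 had several, and 64 controls were left out. Of 946 list genes 877 were matched by symbol, 3 by synonym, and the other 66 are not analysed here. A gene is given by its brightest probe set over 12 arrays, with counts of agreeing probe sets where stated. Levels of different genes are not compared. The comparison and the lists were chosen with earlier results of these data known. Named genes are the 12 largest differences in each direction among 2-fold genes with groups apart, the 12 lowest limma p-values, 2-fold or else up to 4 leading members of each list, and, from lists, genes the study names for muscle and markers; of the last 3 kinds not all are described. Others were named after their values were seen, for their role. The alternatives were other floors, filters, means and scalings, a replicate block, and leaving out each array. Promoters came from RefSeq. Figures were drawn with matplotlib 3.10.9.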

Additional observations from a re-analysis of the deposited data

Results flagged for a closer look

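In 3 of the 27 genes with the largest 2-fold differences or the lowest limma p in muscle, the UAG effect pointed in opposite directions in muscle and WAT on every array of each group, which drew attention to them. Over all 11902 tested genes, 373 (3.13%) were apart between groups in opposite directions in muscle and WAT and 563 were apart in the same direction. The 27 genes were all apart in muscle, so 3.13% is not their background. The 373 are to be set against all genes apart in muscle, 1406 higher and 1158 lower. Such genes were therefore not rare. limma's test of the difference between tissues called none of them (adjusted p of 1.00 each). Chil3 had 64.7 and 598 on the UAG arrays and 30 and 50.8 on the saline arrays of muscle, beside 30 and 30 on the UAG arrays and 38.7 and 141 on the saline arrays of WAT, a fitted difference between the tissues of 4.71 on the log2 scale. Cytl1 had 176 and 302 on UAG and 90.3 and 79.7 on saline muscle arrays, beside 47.5 and 41.5 on UAG and 205 and 99.5 on saline WAT arrays, a difference of 3.13. Rimklb had 30 and 30 on UAG and 83.1 and 77.9 on saline muscle arrays, beside 50.3 and 68.4 on UAG and 37.4 and 44.6 on saline WAT arrays, a difference of -2.88. The fitted differences use values without the floor of 30.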

How the results depend on the processing

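The number of 2-fold probe sets was 133 as reported, 47 with a floor of 100, 3958 with no floor and 284 with no floor but a mean of at least 30. It ran from 293 to 418 with 1 array left out, and was 567 with UAG replicate 1 against saline replicate 1 alone, a setting chosen after seeing the data. The number with groups apart was 71 as reported, 19 with a floor of 100, 2965 with no floor, 198 with no floor but a mean of at least 30, and 220 to 392 with 1 array left out. limma called 0 to 357 probe sets with 1 array left out: 4 without UAG replicate 1, 0 without UAG replicate 2, 235 without saline replicate 1 and 357 without saline replicate 2. The lone array was then assumed to vary like the pair. The test between tissues called 0 to 10, with 10 without saline replicate 2. Of the 2-fold probe sets, 45.1% were higher, 60.5% by geometric means and 25.4% to 76.6% with 1 array left out. A replicate block in limma called 0 probe sets (669 at an unadjusted p under 0.05); deviations of same-numbered arrays correlated at 0.154 over 25105 probe sets, with only 2 pairs, so the numbers are not taken as pairing. Of 29 list medians within 0.1 of 0, 25 changed sign with an array left out. No scaling alternative moved the median gene by over 0.1 on the log2 scale.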

Other observations

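DNA replication and cell cycle genes were higher on the UAG muscle arrays in 16 of 20 tested cases at a median log2 difference of 0.30, 7 of them without overlap. Of the 4 lower genes, 1 was apart between groups. The list median was 0.15 without UAG replicate 2 and 0.04 with a floor of 100. Mcm5, a subunit of the replicative helicase, had 76.7 and 81.0 on the UAG arrays, against 41.1 and 44.3 on the saline arrays (log2 difference 0.89, SE 0.29), with each group's arrays close together. Mki67, the proliferation marker, had 30 and 90.0 on the UAG arrays and 30 and 30 on the saline arrays, and Rrm2, a subunit of ribonucleotide reductase, had 46.4 and 112 on the UAG arrays and 35.7 and 40.0 on the saline arrays, so both were highest on UAG replicate 2, the array with the neutrophil granule genes. Schwann cell markers were higher in 7 of 7 tested cases, 5 without overlap, at a median of 0.37, which was 0.17 without saline replicate 1, 0.55 without saline replicate 2 and 0.06 with a floor of 100. Mbp, myelin basic protein, had 589 and 535 on the UAG arrays and 295 and 528 on the saline arrays, with saline replicate 1 below the other 3 arrays. Interferon-stimulated genes had 7 of 22 higher and 15 lower, 0 apart between groups, and their median was -0.70 without saline replicate 1 and 0.64 without saline replicate 2. Their summed intensity was 4145 and 4196 on the UAG arrays and 2928 and 7013 on the saline arrays. Proteasome subunits had 13 of 22 higher and 9 lower at a median of 0.02.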
